A study of Mus musculus with 13 samples.

Results

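The data compare ventral tegmental area (VTA) tissue that received a Setd7 virus with tissue that received a green fluorescent protein (GFP) virus, in mice that met no social defeat. The comparison takes 7 of the 13 libraries of the series, 4 with Setd7 and 3 with GFP, and 17755 of the 26264 genes in the deposited table, those with at least 10 normalized counts in at least 2 of the 13 libraries. The series crossed the 2 viruses with adult social defeat stress. The 6 libraries after defeat (2 with Setd7, 4 with GFP) serve as a second place to read the same genes. They also enter the fit through the shared estimates of spread and of the sex term. The shared sex term moves the log2 differences, for the Setd7 gene from 2.44 on the 7 libraries to 2.54. The deposited table's name for 1 of the Setd7 libraries after defeat joins 2 library numbers, where the labels give 1, and the labels do not say whether animals were pooled. All mice are labelled C57BlJ/6, the virus was given at postnatal day 14, and tissue punches were taken in adulthood. Setd7 control is Setd7 virus without defeat (2 female and 2 male libraries), and GFP control is GFP virus without defeat (1 female and 2 male). The labels name no promoter for either virus and do not say whether each library is a separate animal, so p-values measure the spread between these samples. A punch holds every cell type of the area, infected or not.

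Setd7 is a lysine methyltransferase that can place a single methyl group on lysine 4 of histone H3, and it also methylates non-histone proteins. Methylation of that lysine marks promoters and enhancers in use. The VTA holds dopamine neurons that project to the striatum and cortex, next to GABA and glutamate neurons, and is studied for its part in reward and in the response to stress.

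Some libraries stand apart. Depth ran from 26.5 to 50.8 × 1e6 recovered reads. Setd7 control replicate 4 lay alone on the first principal component of the 7 libraries (23.7% of the variance, 67.3 against -27.1 to 2.25 in the others), at the end led by antigen presentation and T cell genes. GFP control replicate 3 lay alone on the second (19.95% of the variance, 60.9, against -20.6 to 9.47 in the others). On the third (19.4%) GFP control replicate 2 (35.6) and Setd7 control replicate 3 (36.7) lay together. Setd7 control replicate 4 was at 15.2 there and the others at -26.3 to -17.5. That pair correlated at 0.983, against 0.972 to 0.976 between GFP control libraries. GFP control replicates 2 and 3 were low in dopamine neuron genes, with list means of 10.07 and 9.80 on the log2 scale, against 11.13 in GFP control replicate 1 and 11.00 to 11.61 in the Setd7 libraries. GFP control replicate 1 is also the 1 female GFP library of the comparison, so what is particular to that library and the sex of the GFP group cannot be told apart. Values against GFP control replicate 1 alone come from the fit without GFP control replicates 2 and 3. That fit keeps the sex term, estimated from the other groups, so these values are not plain differences from that library. They are given beside many of the results that they move, but not all, so a result without such a value may also move.

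Setd7 itself read 14538, 13480.5 and 13664 normalized counts in GFP control and 158681, 140236, 81302 and 28587 in Setd7 control, in replicate order. The groups did not overlap, and the lowest Setd7 library, replicate 4, was 1.97 times the highest GFP library. Means ± SD were 13894 ± 565 (n = 3) and 102201 ± 59139 (n = 4). The log2 difference was 2.54 ± 0.40 (SE). The exact two-sided permutation test over the 35 splits gave p = 0.0571, the smallest p that 4 against 3 libraries allow, so that test cannot reach 0.05 for a single gene in this design. The adjusted p was 0.467 by limma and 1.2e-05 by DESeq2, and without Setd7 control replicate 4 limma gave 3.09 with an adjusted p of 6.86e-05. The difference was 3.36 in the female and 1.83 in the male libraries, and limma did not call the difference between the sexes (adjusted p = 0.786). After defeat, in other libraries, Setd7 differed by 3.08 ± 0.45.

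Across all genes the differences were small and centred on 0. The median log2 difference was 0.01, the quartiles lay at -0.13 and 0.12, and 229 genes lay over 1 higher and 356 over 1 lower. limma called 0 of 17755 genes at an adjusted p under 0.05 (0%), with 1423 at an unadjusted p under 0.05, and edgeR's quasi-likelihood test on recovered reads also called 0, with 1483. DESeq2 on recovered reads called 35 (0.197%), of which 20 were higher (0.113%) and 15 lower (0.0845%), with 1568 at an unadjusted p under 0.05. For 2 of the 13 libraries, both after defeat, the worth of 1 read lies too near 1 normalized count for the recovery to be checked, so DESeq2 was also run on the 7 libraries without defeat, where it called 47 (0.265%), 22 of them among the 35. The DESeq2 count moved with single libraries: it was 242 without GFP control replicate 1, 18 without GFP control replicate 2, 4 without Setd7 control replicate 1 and 7 without Setd7 control replicate 4, and 13 without GFP control replicates 2 and 3 together. For Sbds, Peak1, Utp25, Hdac11, Ndufc2, Ccsap, Serp2, Magee1 and Hsp90ab1, all described below, the call on 13 libraries was lost on the 7. A DESeq2 call is given below as that tool's alone.

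**Figure D1:**
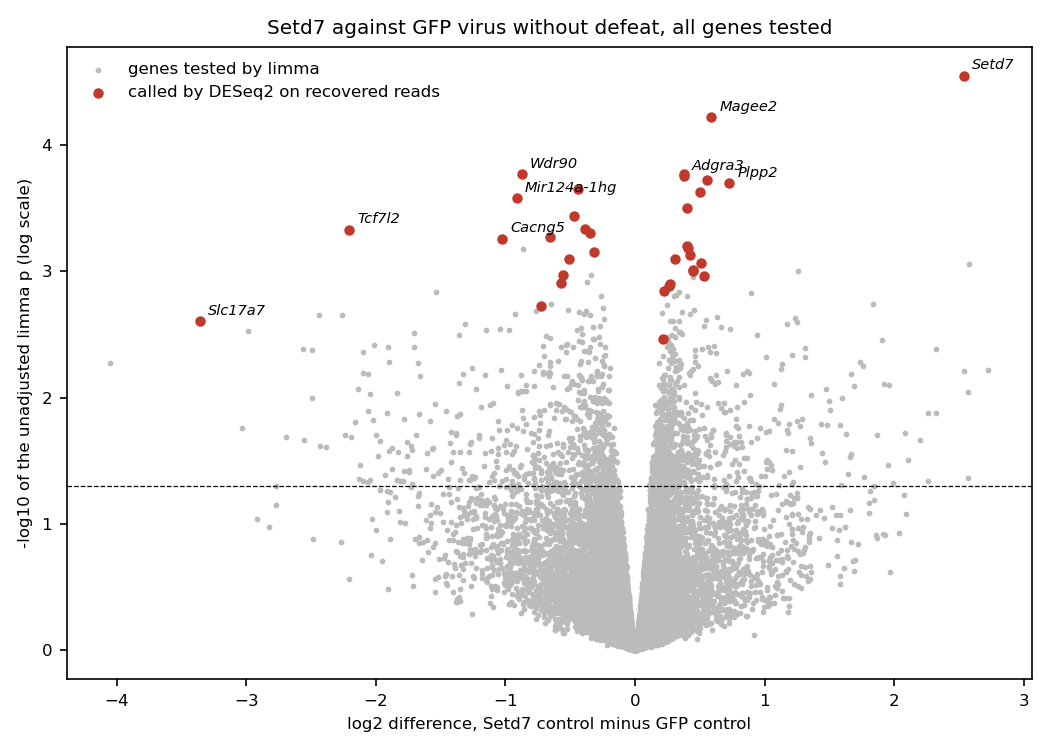
Each point is 1 of 17755 genes, with its log2 difference (Setd7 control minus GFP control) against minus log10 of its unadjusted limma p, and the dashed line marks 0.05. Red points are the 35 genes called by DESeq2, and Setd7 lies at 2.54 on the horizontal axis.

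The 4 Setd7 libraries all lay above the 3 GFP libraries for 740 genes (4.17% of those tested) and all below them for 727 (4.09%). Unadjusted p under 0.05 was reached by 766 genes on the higher side (4.31%) and 657 on the lower (3.7%). With each library scaled to the same total these became 519 and 865, and the counts without overlap 526 and 868, so which side holds more genes turns with the scaling, which moves the median of all genes by -0.026. Genes on the lower side at that p had longer transcripts: the median longest transcript was 3.95 kb (quartiles 2.67 and 5.55) against 3.19 kb over all genes tested and 2.68 kb (1.71 and 3.97) on the higher side, by the GENCODE annotation of the previous mouse build, matched by name.

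Among the genes higher with Setd7, the first by p after Setd7 was Magee2, a member of the MAGE family, whose proteins bind RING-type ubiquitin ligases. It read 436, 326 and 331 in GFP control and 614, 527, 526 and 559 in Setd7 control, with no overlap. The difference was 0.58 ± 0.10 (adjusted p = 0.467 by limma, 0.00156 by DESeq2, 0.0374 by DESeq2 on the 7 libraries), and 0.43 against GFP control replicate 1 alone. Among the genes lower, the first was Wdr90, a WD-repeat protein of centrioles and cilia. It read 301, 339.8 and 344 in GFP control and 199, 154, 202 and 170.3 in Setd7 control, also with no overlap. The difference was -0.88 ± 0.17 (adjusted p = 0.467 by limma, 0.00317 by DESeq2, 0.00609 by DESeq2 on the 7 libraries), and -0.65 against GFP control replicate 1 alone.

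The 250 bases before the annotated start of these 2 genes are shown because the genes lead the list in each direction. The dinucleotide CG is in capitals. Both come from RefSeq on GRCm38.p6, the build before the one used for the counts, and both lie on the minus strand, Magee2 at chrX:104857268-104857517 and Wdr90 at chr17:25861516-25861765.
Magee2: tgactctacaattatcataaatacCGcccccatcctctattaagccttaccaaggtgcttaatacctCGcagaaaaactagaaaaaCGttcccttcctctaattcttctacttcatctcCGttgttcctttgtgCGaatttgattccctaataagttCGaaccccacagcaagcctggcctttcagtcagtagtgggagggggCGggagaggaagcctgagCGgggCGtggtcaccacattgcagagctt
Wdr90: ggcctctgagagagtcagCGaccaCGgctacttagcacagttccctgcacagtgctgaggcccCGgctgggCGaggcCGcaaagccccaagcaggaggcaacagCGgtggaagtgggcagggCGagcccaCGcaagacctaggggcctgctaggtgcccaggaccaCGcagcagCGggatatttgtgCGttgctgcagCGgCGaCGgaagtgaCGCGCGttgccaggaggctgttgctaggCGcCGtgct
Magee2 has 9 CG and Wdr90 19, counted on either strand since CG reads the same on both. Of 32851 such windows 40.3% hold at least 9 and 19.7% at least 19, around a median of 6. Of the 36 genes named by rule 24 have an entry in that table.

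Other genes of the MAGE and TSPY-like families lay on the same side as Magee2. Of 13 listed genes (Trp53 among them) 12 were above 0 and 1 below (51.4% and 48.6% of all genes tested), with a median of 0.13 against 0.01 over all genes tested, and 7 did not overlap between the groups on the higher side (4.17% of all genes tested). The median was 0.29 without GFP control replicate 1. Tspyl3, of the nucleosome assembly protein family, read 1055, 1205 and 1127 in GFP control and 1493, 1354, 1519.9 and 1459 in Setd7 control, a difference of 0.38 ± 0.07 (adjusted p = 0.467 by limma, 0.00438 by DESeq2). Mageh1 read 471, 517 and 639.8 against 781, 725, 721 and 703 (0.45 ± 0.11), and Magee1 9663, 9512 and 9823 against 12248, 10523, 11495 and 12100.4 (0.27 ± 0.06). In each of these 4 genes the groups were separate, and DESeq2 on 13 libraries called 3 of them, not Mageh1. On the 7 libraries the DESeq2 adjusted p was 0.0474 for Tspyl3 and 0.231 for Magee1, whose call was lost. The list was written with Magee2, Tspyl3 and Magee1 already known, so its count is no independent support. After defeat its median was -0.07, with 4 genes above 0 and 9 below.

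Several other named genes on the higher side encode membrane or secreted proteins. Adgra3, an adhesion G protein-coupled receptor, read 915, 886 and 909 in GFP control and 1169, 1232, 1153 and 1137 in Setd7 control. Its difference was 0.38 ± 0.07 and was 0.23 ± 0.08 after defeat. Dkk3, a secreted protein of the Dickkopf family of Wnt modulators, read 2606, 2282 and 1999 against 3207, 3173, 3256 and 3926 (0.55 ± 0.11, -0.07 ± 0.12 after defeat). The groups of both genes were separate. Plpp2, a phospholipid phosphatase, read 214, 206 and 252 against 393, 329, 353 and 404, a difference of 0.73 ± 0.14 that was -0.12 ± 0.16 after defeat. Slc29a4, a plasma membrane monoamine transporter, read 889, 925 and 854 against 1492, 1317, 1262 and 1051 (0.51 ± 0.12). Each of these 4 was called by DESeq2 on 13 libraries.

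Rerg, a small GTPase of the Ras family, differed by 0.50 ± 0.10, Susd2, a membrane protein with a sushi domain, by 0.42 ± 0.10, and Serp2, a small protein of the endoplasmic reticulum, by 0.31 ± 0.07. Hdac11, a histone deacetylase, had a tight Setd7 group: it read 9789.5, 8978 and 8603 in GFP control and 10701, 10573, 10724 and 10781 in Setd7 control, a difference of only 0.22 ± 0.06 (DESeq2 adjusted p = 0.0287, and 0.274 on the 7 libraries). After Setd7 the gene with the widest gap on the higher side was Fgf20, a fibroblast growth factor of dopamine neurons, at 54.8, 12.1 and 16.2 against 103, 105, 107 and 156. Its difference was 2.32 ± 0.66 over all libraries and 0.85 against GFP control replicate 1 alone, which is also the GFP library with the higher dopamine neuron list mean. The other genes chosen for their gap between groups were Trim71 (0.94 ± 0.26), Gpr6 (1.17 ± 0.31), H2ac6 (0.88 ± 0.27), Styk1 (0.89 ± 0.40) and Clic6 (0.79 ± 0.35). limma called none of these and DESeq2 on 13 libraries set the adjusted p of these and of Fgf20 aside. On the 7 libraries DESeq2 called Fgf20 (adjusted p = 0.00569) and Clic6 (0.0374). H2ac6 has near-identical histone copies, so its reads are uncertain.

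Of the lower genes, Mir124a-1hg and Mir124-2hg are host transcripts of microRNA miR-124, which is abundant in neurons. Mir124a-1hg read 2313, 2781 and 2314 in GFP control and 1035, 1000.2, 1891 and 1302 in Setd7 control (-0.91 ± 0.18, DESeq2 adjusted p = 0.00317), and Mir124-2hg read 884, 773 and 758 against 462, 572, 622 and 511 (-0.57 ± 0.14, 0.0486). Setd7 control replicate 3 was the highest Setd7 library for both. Against GFP control replicate 1 alone they differed by -1.04 and -0.76, and after defeat by 0.20 ± 0.21 and 0.02 ± 0.16. In the list of microRNA and small RNA host transcripts, which includes snoRNA hosts, 20 of 24 lay below 0, with a median of -0.33, 11 at an unadjusted p under 0.05 (3.7% of all genes tested) and 5 without overlap (4.09%). The median was -0.17 without GFP control replicate 1 and -0.48 against that library alone. Snhg11 read 41461, 40436 and 34943 against 17858, 18606, 34514 and 23873 (-0.74 ± 0.22) and Mirg 443, 447 and 408 against 229, 203, 391 and 274 (-0.66 ± 0.20). Setd7 control replicate 3 was also the highest Setd7 library for these hosts, at 9.55 in list mean against 9.14 to 9.32 in the other Setd7 libraries and 9.56 to 9.70 in GFP control.

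Most splicing factors had values below 0. Of 44 genes for splicing factors and the kinases that phosphorylate them, 42 were below 0, with a median of -0.11, 15 at an unadjusted p under 0.05 (3.7% of all genes tested) and 11 without overlap, where 4.09% of all genes tested lay below without overlap. Ttc14, a tetratricopeptide repeat protein placed in the list, read 3548, 3648 and 3480.2 in GFP control and 2541, 2454, 2893 and 2594 in Setd7 control (-0.44 ± 0.09, adjusted p = 0.467 by limma, 0.00438 by DESeq2). Srsf5, an SR protein, read 2109, 1995 and 2051 against 1524, 1584, 1842 and 1663 (-0.31 ± 0.09), and Tial1, an RNA-binding protein, 4239, 3994 and 3599.7 against 3208, 3459.8, 3571 and 3276 (-0.23 ± 0.07). Rbm3, a cold-inducible RNA-binding protein, read 546, 702 and 585 against 346, 371, 558 and 494, where replicate 3 of Setd7 control overlapped GFP control. The list was written with Ttc14 known. By library the list overlapped, since Setd7 control replicate 3 had a list mean of 11.20 and GFP control replicate 3 11.18. Its median was -0.15 against GFP control replicate 1 alone and 0.00 after defeat.

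Other named genes lower with Setd7 had various roles. Cacng5, an auxiliary subunit of AMPA receptors, read 2071, 1259 and 1804 against 809, 1228, 767 and 685, separate by a narrow margin between GFP replicate 2 and Setd7 replicate 2 (-1.03 ± 0.22, and 0.40 ± 0.25 after defeat). Cttnbp2, a binding partner of cortactin, differed by -0.47 ± 0.10, Peak1, a pseudokinase of the cytoskeleton, by -0.39 ± 0.08, and Utp25, of the processome that matures small ribosomal subunits, by -0.35 ± 0.08. Btbd3, known for orienting dendrites, differed by -0.51 ± 0.12 but by -0.18 against GFP control replicate 1 alone. Kifc2, a kinesin, differed by -0.31 ± 0.07 (-0.19 against GFP control replicate 1 alone). It is the 1 gene of the 16 named lower whose groups overlap. Cenpu, a centromere protein, was low in count at 50.9, 58.5 and 46.3 against 12.01, 24.5, 22.7 and 13.3 (-1.53 ± 0.38). The antisense transcripts Uckl1os (-0.86 ± 0.19) and Srrm4os (-1.15 ± 0.31) cannot be told from their partners unless reads were counted by strand, which is not given in the sources used here. Ccsap and Sel1l3 differed by -0.56 ± 0.13 and -0.72 ± 0.19, but by -0.27 and -0.26 against GFP control replicate 1 alone.

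**Figure D2:**
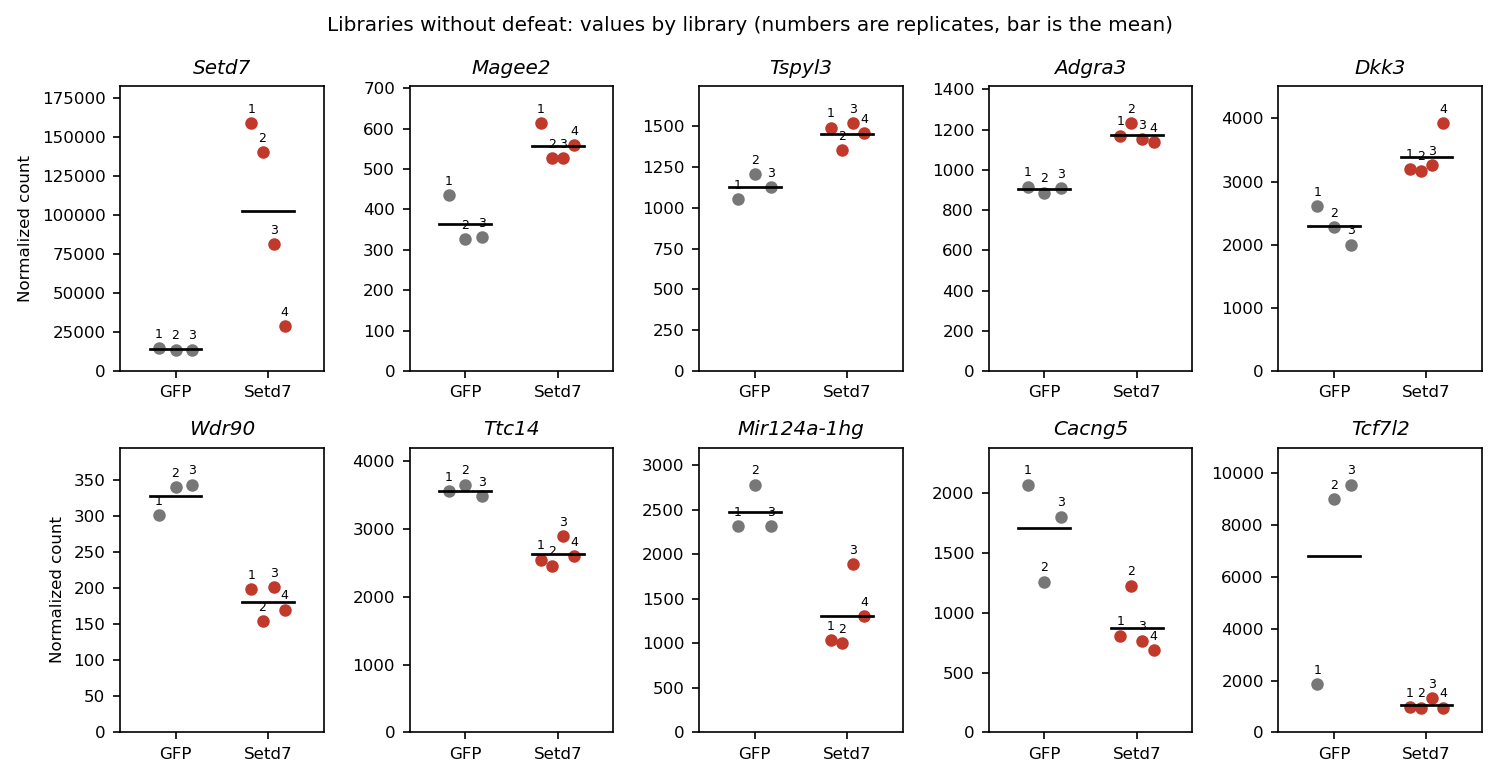
Normalized counts (vertical axis, from 0) of 10 genes in the 3 GFP control libraries (grey) and the 4 Setd7 control libraries (red), with the replicate number beside each point and the mean as a bar. Each gene shows no overlap between the groups, and Tcf7l2 shows GFP control replicate 1 at 1869 far below replicates 2 and 3 at 9009 and 9559.

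Tcf7l2 and Slc17a7 were highest in GFP control replicates 2 and 3. Tcf7l2, a transcription factor of the thalamus and its neighbours, read 1869, 9009 and 9559 against 981, 949, 1320.4 and 952 (-2.21 ± 0.47, and -1.21 against GFP control replicate 1 alone). Slc17a7, the vesicular glutamate transporter of cortex and thalamus, read 211, 1823 and 5064 against 117, 114, 132 and 97.9 (-3.36 ± 0.89, and -0.67 against GFP control replicate 1 alone). The summed thalamus list ran from 28166 to 82079 normalized counts in GFP control and 27399 to 30802 in Setd7 control. Of its 15 genes 14 lay below 0, with a median of -0.79 that was -0.22 against GFP control replicate 1 alone. The thalamus median rested mainly on GFP control replicate 2: it was -0.11 without that library and -1.35 without GFP control replicate 3. The glutamate neuron list (12 of 13 below) went from -0.38 to -0.11 against GFP control replicate 1 alone. In bulk tissue fewer cells of a type and less RNA per cell cannot be told apart.

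Dopamine neuron genes stood on the other side, with list means lowest in GFP control replicates 2 and 3. Of 26, 25 lay above 0, with a median of 0.93 that was -0.04 against GFP control replicate 1 alone, and 0.19 after defeat. The value of -0.04 is adjusted for sex. It was 0.12 with GFP defeat replicate 1 also left out, and the plain difference in the female libraries had a median of 0.08. On the higher side 18 were at an unadjusted p under 0.05 by limma (4.31% of all genes tested) and 6 did not overlap (4.17%). The list summed to 44170.4 to 116277 in GFP control and 106340.0 to 191937 in Setd7 control. Th, the enzyme that makes the dopamine precursor, read 9759.5, 3392 and 2508 against 13299.5, 9801, 10728 and 19110.5 (1.58 ± 0.57), and the dopamine transporter Slc6a3 read 20103, 7565 and 4914 against 27847, 21718, 21452 and 45560.4 (1.63 ± 0.61). GFP control replicate 1 lay close to the Setd7 libraries for both genes but below each of them, so the groups did not overlap. Ntsr1, the neurotensin receptor of these neurons, differed by 1.24 ± 0.33 and 0.32 against that library alone, and Foxa1 by 1.25 ± 0.33 and 0.31. The part of tissue content in these differences was not tested.

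Other marker lists were read for the remaining cell types of the region. The median was -0.34 for 7 serotonin and raphe genes, but 0.03 without GFP control replicate 3 and -0.94 without GFP control replicate 2. It was -0.47 for 12 ependymal genes, -0.20 for 16 meningeal fibroblast genes, 0.06 for 11 choroid plexus genes and 0.12 for 12 genes of oligodendrocyte precursors. Against GFP control replicate 1 alone the medians were -0.73 for serotonin and raphe, -0.93 for ependymal, 0.21 for meningeal fibroblast and -0.05 for precursor genes. GABA neuron genes had a median of 0.02, and Gad1, the enzyme that makes GABA, read 10089.5, 6818 and 11434 against 8116, 10935, 7633 and 10427. With libraries scaled to the same total the GABA neuron median lay just below 0. It was 0.11 without GFP control replicate 1, -0.14 without GFP control replicate 2 and -0.15 against GFP control replicate 1 alone.

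**Figure D3:**
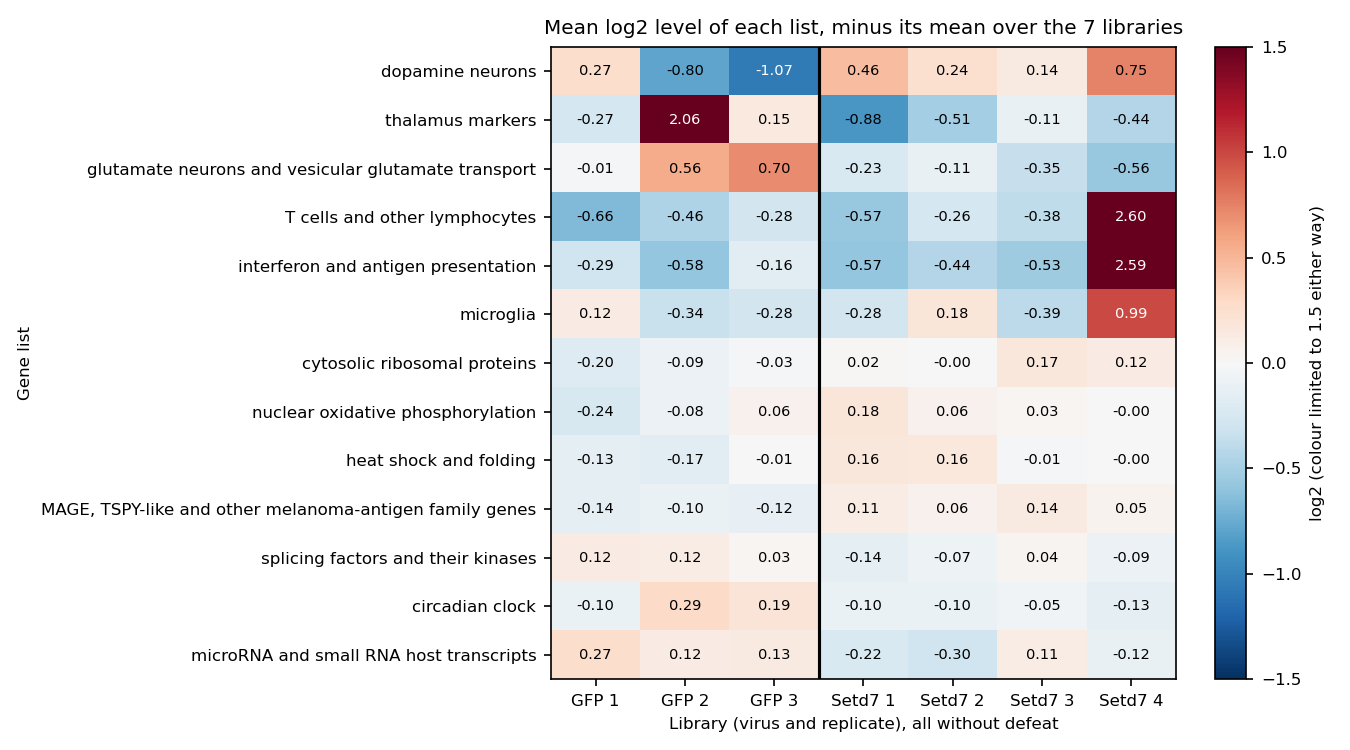
Mean log2 level of 13 gene lists (rows) in each of the 7 libraries (columns), minus the list's mean over the 7, in log2 units. GFP control replicates 2 and 3 are lowest for dopamine neurons, and Setd7 control replicate 4 is highest for lymphocytes and for interferon and antigen presentation.

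Immune genes were carried by 1 library. The lymphocyte list summed to 506 normalized counts in Setd7 control replicate 4, to 84.1 to 113 in the other Setd7 libraries and to 61.3 to 88.3 in GFP control. The interferon and antigen presentation list summed to 73064 there, 10657 to 11556 and 10007 to 11598, and the microglia list to 38681, 13502 to 19609.6 and 13634 to 18653. Cd74, the invariant chain of class II molecules, read 96.5, 49.97 and 208 in GFP control and 70.97, 114, 86.3 and 8725 in Setd7 control. Cd3e, of the T cell receptor, read 0, 4.28 and 5.39 against 0, 2.23, 2.16 and 76.5, with 0 in 2 libraries. The list medians were 1.02 for 6 lymphocyte genes tested of 15, 0.72 for interferon (28 of 30 above 0) and 0.31 for microglia (16 of 18), and without that library -0.05, -0.11 and -0.08. The same library had the lowest Setd7 level of its group. Against GFP control replicate 1 alone the interferon median was 0.29 and the microglia median -0.01. Oligodendrocyte genes had a median of 0.15 (-0.04 against GFP control replicate 1 alone), astrocyte genes 0.05 and endothelial and mural genes -0.03.

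Housekeeping genes for making and folding proteins lay slightly above. Of 56 cytosolic ribosomal protein genes 51 were above 0, with a median of 0.20, 20 at an unadjusted p under 0.05 and 13 without overlap, where 51.4%, 4.31% and 4.17% of all genes tested did so. Rpl41 read 1339, 1528 and 1547 against 2021, 1898, 2063 and 1814 (0.41 ± 0.09, DESeq2 adjusted p = 0.0318, and 0.26 ± 0.10 after defeat), Rpl4 3109, 3109.7 and 2985 against 3410.0, 3529, 3787 and 3701 (0.25 ± 0.06), and Rps9 738, 737 and 737 against 1036, 832, 948 and 975 (0.36 ± 0.10). Ribosomal protein genes have many near-identical copies in the genome, so their reads may be split between copies. Sbds, a factor of ribosome maturation, differed by 0.40 ± 0.08. Nuclear genes of oxidative phosphorylation had a median of 0.12 (39 of 41 above 0). That median was 0.04 without GFP control replicate 1 and 0.27 against that library alone, and 0.01 in males and 0.32 in females. Its library means overlapped, at 10.63 to 10.94 in GFP control and 10.88 to 11.06 in Setd7 control. Ndufc2 of complex I read 781, 927 and 952 against 1288, 1108, 1149.9 and 1127 (0.40 ± 0.09, DESeq2 adjusted p = 0.0344, and 0.145 on the 7 libraries).

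Heat shock and folding genes were above 0 in 29 of 32, with a median of 0.13 and 9 without overlap, where 51.4% of all genes tested lay above 0 and 4.17% above without overlap. Hsp90ab1, a constitutive Hsp90, read 21634, 23608 and 23720.3 against 27808, 25876, 26168 and 26713 (0.22 ± 0.06, DESeq2 adjusted p = 0.0441, and 0.273 on the 7 libraries), Dnajb1, a co-chaperone, 2156, 2410.1 and 2321 against 2915, 2749.8, 2816 and 2494 (0.27 ± 0.08), and Hspd1, the mitochondrial chaperonin, 1990.0, 2310.2 and 2043 against 2613, 2428, 2492 and 2316 (0.22 ± 0.07). All 3 were without overlap. The median was 0.10 for the proteasome (28 of 31 above 0), 0.09 for mitochondrial ribosomal proteins (33 of 36), 0.14 for the unfolded protein response (20 of 24), 0.09 for cholesterol synthesis (18 of 22) and 0.09 for p53 targets (14 of 16). Without GFP control replicate 1 the medians were 0.04 for the proteasome, 0.04 for mitochondrial ribosomal proteins and 0.05 for p53 targets, and cholesterol synthesis was 0.05 without GFP control replicate 3. Cdkn1a, the cell cycle inhibitor p21, read 329.9, 403 and 302 against 546, 583, 516 and 404 (0.58 ± 0.18), with no overlap. After defeat the medians were 0.02 for cytosolic ribosomal proteins, 0.05 for heat shock and 0.02 for oxidative phosphorylation.

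Circadian clock genes were below 0 in 18 of 21, with a median of -0.19 that was -0.05 against GFP control replicate 1 alone. Nr1d1, a repressor of the clock, read 1704, 2143 and 1920.5 against 1379, 1698, 1325 and 1435 (-0.39 ± 0.11) and Bhlhe40 2279, 3069 and 3171 against 2199, 2272, 2201 and 2197 (-0.32 ± 0.09), both without overlap and neither called by limma, edgeR or DESeq2. Hlf and Rora were high only in GFP control replicates 2 and 3, with Rora at 6314, 19398 and 9087 against 6472, 6045, 6201 and 6341. The hour of collection is not given in the labels.

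Chromatin genes related to the enzyme had medians near 0. The median was -0.05 for 18 subunits of the complexes that write histone H3 lysine 4 methylation and -0.02 for 5 demethylases of that mark. It was -0.04 for 26 listed lysine methyltransferase genes, Setd7 and Dot1l among them, and -0.01 for 20 genes of reported Setd7 substrates. Of the writers Kmt2b read 3181, 3894 and 3300.3 against 2645, 2633, 3351 and 2992 (-0.23 ± 0.08). Dot1l, of the lysine methyltransferase list, read 1775, 1859.7 and 1852 against 1381, 1301, 1766 and 1558 (-0.27 ± 0.11). Among the substrates Esr1, the oestrogen receptor, read 275, 233 and 270.4 against 341, 407, 427 and 314 (0.49 ± 0.18), with no overlap, and limma adjusted p = 0.579. Immediate early genes had a median of 0.04 and glucocorticoid response genes 0.10, and without GFP control replicate 1 -0.16 and -0.03. Fos read 318, 460.5 and 543 against 507, 341, 634 and 396, and Fkbp5 721, 1056 and 812 against 925, 828, 937 and 784, both with overlap.

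Neuropeptide genes of the area and their receptors had a median of 0.10 (19 of 28 above 0). That median was -0.04 against GFP control replicate 1 alone. After defeat it was -0.16, with 6 genes above 0 and 22 below. The median was -0.04 for histone deacetylases, 0.07 for translation factors and -0.03 for Wnt ligands, receptors and modulators. It was -0.01 for perineuronal net and matrix genes and 0.03 for neurotrophins, GDNF family and receptors. Ion channel and synapse lists had medians between -0.07 and 0.03: -0.06 for potassium channels, -0.01 for sodium, calcium and HCN channels, -0.07 for glutamate and GABA receptors, 0.02 for vesicle release (just below 0 with libraries scaled to the same total) and 0.03 for axon guidance. Unc13b, a vesicle priming protein, read 912, 909 and 893 against 573, 622, 832 and 644 (-0.43 ± 0.12), with no overlap. Unc13a of the same family differed by -0.23 ± 0.07, also with no overlap. Kcnh3, a potassium channel, read 43.03, 82.8 and 137 against 15.3, 11.9, 32.4 and 22.4 (-1.90 ± 0.54), lowest in GFP control replicate 1 among the GFP libraries.

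**Figure D4:**
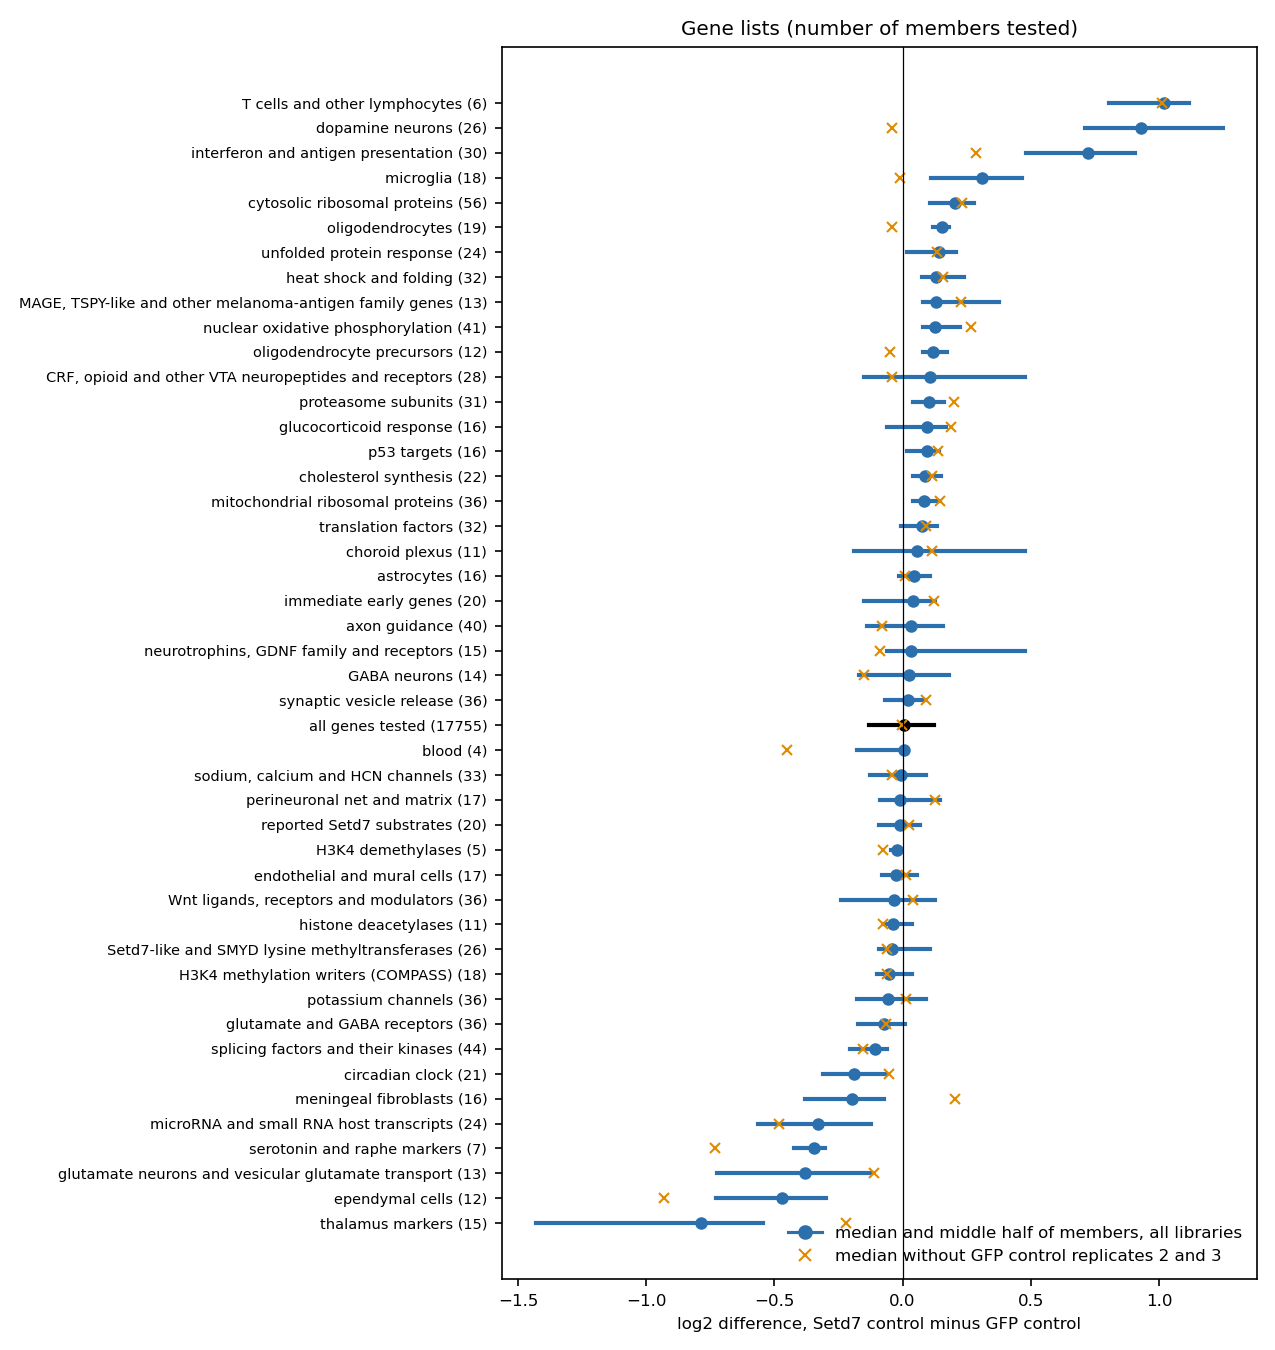
Median log2 difference of each gene list (blue dot) with the interquartile range of its members (blue line), beside all genes tested (black) and the median without GFP control replicates 2 and 3 (orange cross). The dopamine neuron list goes from 0.93 to -0.04 and the splicing list from -0.11 to -0.15.

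The libraries after defeat are other libraries, so they show whether the named genes lay on the same side elsewhere. Of the 19 genes named higher 10 lay on the same side, and of the 16 named lower 10, against 53.4% over all genes tested. Susd2 (0.25 ± 0.11), Rpl41 (0.26 ± 0.10) and Adgra3 (0.23 ± 0.08) lay on the same side as without defeat. Plpp2, Tspyl3, Ndufc2 and Mir124a-1hg lay on the other side of 0. For most named genes other than Setd7, higher and lower, the GFP defeat libraries already lay past all GFP control libraries, on the Setd7 side. The named genes were chosen by their difference from these same GFP control libraries. The share of all genes tested that did so was not computed, and the cause was not tested. Magee2 read 555, 513, 453 and 442 in GFP defeat, Plpp2 347, 340, 386 and 401, and Mir124a-1hg 1103, 971, 1428 and 853. The exceptions were Fgf20 at 11.2, 83.2, 43.5 and 102, Tcf7l2 at 982, 1349, 1449 and 6575, Slc17a7, Styk1 and Clic6. No gene's difference between the 2 settings was called by limma, of 880 at an unadjusted p under 0.05, and the lowest adjusted p among the named genes was 0.942. Nor was a difference between the sexes called, with 1111 at an unadjusted p under 0.05, in a design with 1 female GFP library.

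**Figure D5:**
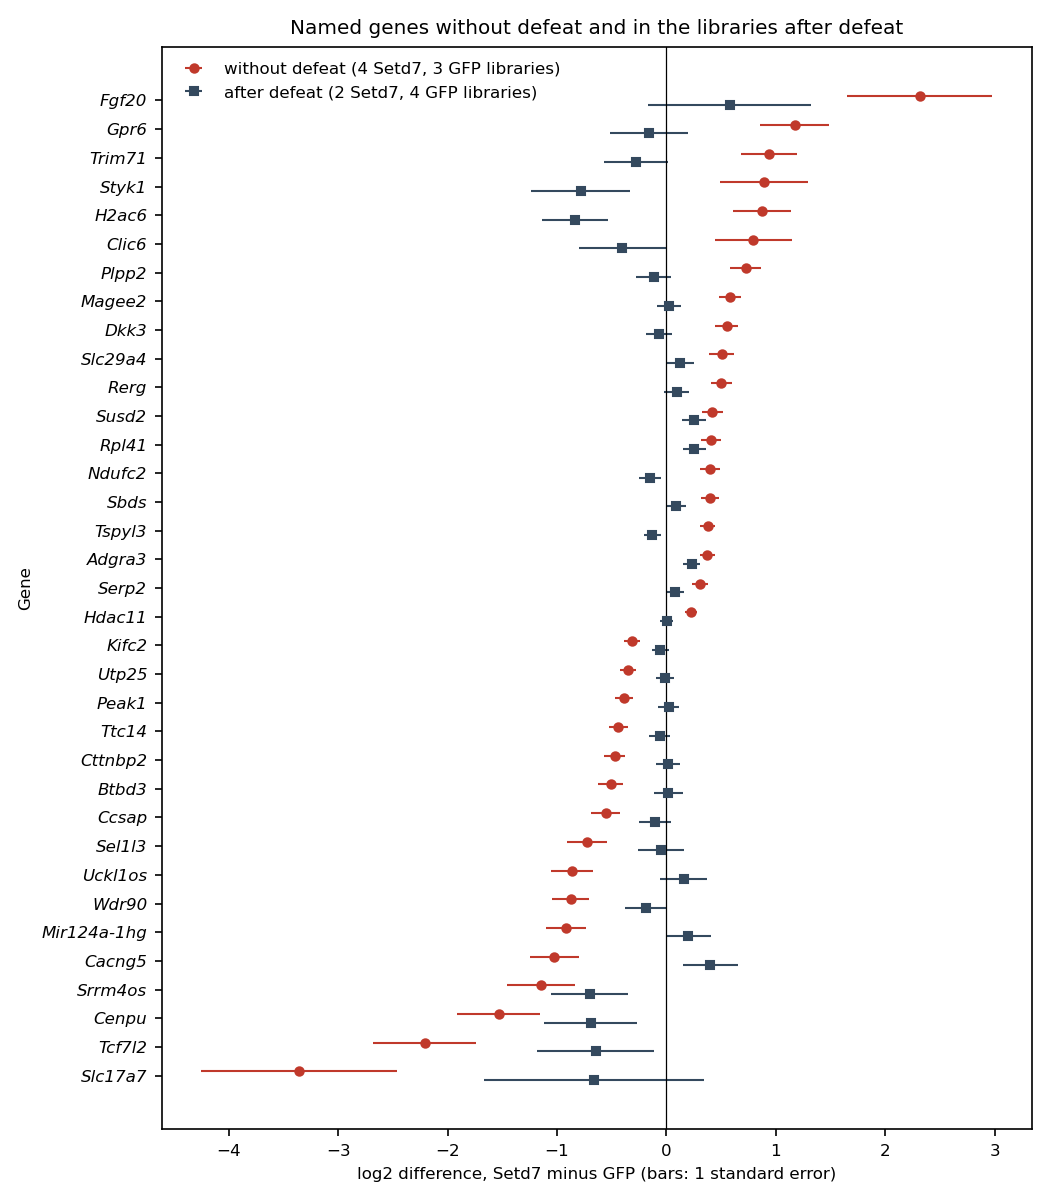
Log2 difference (Setd7 minus GFP, with 1 standard error) of the 35 named genes other than Setd7, without defeat (red) and in the other libraries after defeat (dark squares). Magee2, for example, goes from 0.58 ± 0.10 to 0.02 ± 0.11, and its GFP defeat libraries all lay above its GFP control libraries.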

How the data were processed

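Per the labels, RNA came from VTA punches by an RNeasy Micro kit and went into TruSeq libraries after RiboZero removal of ribosomal RNA. The submitters' processing notes name Bowtie2, featureCounts, DESeq2 and the build GRCm39, without versions or settings. The authors deposited normalized signal: read counts per gene scaled by each library's size factor, for 26264 genes and 13 libraries. Values within a library are multiples of 1 step, so whole reads were recovered; 341432 of 341432 values lay within 0.01 of a whole read. In 2 libraries after defeat that step is near 1, and the recovery there could not be checked.

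Genes with at least 10 normalized counts in at least 2 libraries were tested (17755). The test was limma 3.58.1 (R 4.3.3) with a trend on log2 of the deposited normalized count plus 1, with 4 group means and sex, all 13 libraries (8 residual and 4.64 prior degrees of freedom), two-sided, Benjamini-Hochberg over all genes, threshold 0.05. Fold changes are on that scale and understate low genes. edgeR 4.0.16 and DESeq2 1.42.0 were run on recovered reads, and DESeq2 set the adjusted p aside for 6540 genes. Replicates of a group correlated at 0.971 to 0.984 and none was a duplicate (chi-square per degree of freedom 20.4 or more). The scripts were tested on simulated data.

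Named genes are Setd7, then, with a mean of at least 30 normalized counts over the 7 libraries and leaving out predicted, RIKEN, clone, LOC, Xist, Tsix, Y-linked and ribosomal RNA names, up to 12 per direction by limma p, up to 12 called by DESeq2 by adjusted p and the 6 without overlap with the widest log2 gap between groups. For each of 45 gene lists the 4 members with the smallest p and its defining genes are examples. Genes of other kinds were chosen after their values were seen. The members and lists were chosen with earlier results of these data known. Alternatives were other pseudocounts, filters, scalings, tools, covariates and left-out libraries. Gene names were matched to GRCm38 tables. A few example genes are not reported here.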

Additional observations from a re-analysis of the deposited data

Results flagged for a closer look

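In 21 of 255 groups of 4 Setd7 control libraries examined (named and example genes, and list means) 1 library lay farther from the other 3 than Dixon's 95% critical value allows. Chance flags about 1 in 20 such groups. No effect differed between the sexes, or without and after defeat, past the threshold.

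In Setd7 control replicate 2 the normalized counts that stood apart were Bhlhe40 at 2272 (others 2197 to 2201), Col3a1 at 151 (others 70.97 to 74.4), Fdft1 at 1336 (others 1546 to 1579), Lum at 151 (others 61.5 to 62.2), Pdgfra at 3292 (others 2602 to 2707), Trim71 at 39.3 (others 46.9 to 48.04). The mean log2 level of the cholesterol synthesis list was 10.17 there (others 10.41 to 10.45).

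In Setd7 control replicate 3 the normalized counts that stood apart were C1ql1 at 1119.7 (others 1554 to 1661), Cbln2 at 1561 (others 1016 to 1026), Klk6 at 522 (others 976 to 1036), Rpl32 at 242 (others 189.9 to 194), Sox10 at 3861 (others 4593 to 4727), Tcf7l2 at 1320.4 (others 949 to 981).

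In Setd7 control replicate 4 the normalized counts that stood apart were Cd74 at 8725 (others 70.97 to 114), Cd8a at 95.8 (others 5.46 to 8.90), Dkk3 at 3926 (others 3173 to 3256), Fgf20 at 156 (others 103 to 107), Stat3 at 3622 (others 2227 to 2326), Tap2 at 1235 (others 397 to 433). The mean log2 level of the T cells and other lymphocytes list was 6.27 there (others 3.09 to 3.40). The mean log2 level of the interferon and antigen presentation list was 10.36 there (others 7.20 to 7.33).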

How the results depend on the processing

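limma called 0 genes under each alternative except 4 without GFP control replicate 1 (Adcy1, Avpr1a, Celf6 and Scn9a, chosen after their values were seen) and 1 without Setd7 control replicate 4 (Setd7), against 35 by DESeq2 and 47 by DESeq2 on the 7 libraries. Leaving out 1 library gave 4 to 242 DESeq2 calls, 1002 to 1771 genes above without overlap and 957 to 1644 below; without GFP control replicates 2 and 3 DESeq2 called 13. Fewer libraries widen the counts without overlap by construction. DESeq2 on 7 libraries and DESeq2 with libraries left out were chosen after seeing the data. The Setd7 difference was 2.73 by DESeq2, 2.52 by DESeq2 on the 7 libraries and 2.31 to 3.09 leaving out 1 library. Of 1057 list medians recomputed 992 moved by less than the spread between libraries. Of 5202 gene values 90 changed sign, and the cause was not tested. The main limma fit called 0 genes, so no sign change could fall in a called gene. Leaving out 1 library, or GFP control replicates 2 and 3 with GFP defeat replicate 1 (a leave-out with 1 GFP control library, assumed to vary like the others), the log2 differences that changed sign ranged for Alas2 -0.36 to 0.20, Bpgm -0.073 to 0.081, Cacnb4 -0.53 to 0.070, Cd3e -0.066 to 1.84, Cd74 -0.25 to 2.48, Cd8a -0.027 to 1.49, Cfap126 -0.82 to 0.27, Cldn5 -0.00571 to 0.39, Col3a1 -0.79 to 0.067, Cx3cr1 -0.18 to 0.44, Dcn -0.15 to 0.28, Dusp1 -0.27 to 0.056, Enpp2 -0.026 to 0.22, Fev -1.53 to 0.035, Fkbp5 -0.076 to 0.24, Fos -0.091 to 0.45, Gad1 -0.23 to 0.14, Gfap -1.14 to 0.57, Grik3 -0.046 to 0.72, Hlf -0.97 to 0.000729, Hsd17b7 -0.50 to 0.11, Irf1 -0.016 to 1.37, Kcnj3 -0.69 to 0.071, Klf9 -0.24 to 0.089, Lum -0.92 to 0.25, Mmp17 -0.037 to 0.45, Npy -1.80 to 0.41, Ntf3 -0.019 to 1.36, Oprk1 -0.069 to 1.39, Pax5 -0.61 to 1.602, Pdgfra -0.059 to 0.16, Per1 -0.31 to 0.073, Slc17a6 -0.51 to 0.23, Slc22a3 -0.94 to 0.12, Smyd3 -0.080 to 0.35, Ttr -0.42 to 3.52. Without GFP control replicates 2 and 3 they were Alas2 -0.27, Bpgm -0.081, Cacnb4 0.070, Cfap126 0.081, Col3a1 0.098, Cx3cr1 -0.17, Dusp1 0.061, Enpp2 -0.051, Gfra1 -0.050, Grik3 -0.071, Hlf 0.00683, Hsd17b7 0.10, Kcnj3 0.088, Klf9 0.071, Lum 0.29, Mmp17 -0.013, Npy 0.46, Ntf3 -0.12, Oprk1 -0.14, Pax5 -0.68, Pdgfra -0.052, Per1 0.050, Ret -0.11, Slc17a6 0.29, Smyd3 -0.070, Sox10 -0.00872, Tacr3 -0.068. Under other settings they were Alas2 -0.026 (7 libraries without defeat only). Alas2 -0.031, Bpgm -0.00232 (edgeR on recovered reads, 7 libraries without defeat only). Alas2 -0.025 (DESeq2 on recovered reads, 7 libraries without defeat only). Bpgm -0.00448, Dcn -0.014 (scaled to the library total). Gfap 0.010, Kdm5c 0.042 (no sex term). No paired analysis was possible because no library number of the labels is shared between groups, nor is either of the 2 numbers joined in the column of Setd7 defeat replicate 1. Depth limits genes near the filter on low values.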
